A study of Mus musculus with 10 samples.

Results

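The 10 genes described here encode claudins and their partners at the tight junction: Cldn1, Cldn2, Cldn3, Cldn4, Cldn7, Cldn8, Cldn15, Cldn23, Ocln and Tjp1. They were taken as the probe sets (groups of short probes against one transcript) whose platform annotation names 1 of these genes and no other. This gave 18 probe sets for the 10 genes, of 45101 probe sets on the array, of which 34958 name a single gene and stand for 18194 genes. Of the members, 6 have 1 probe set and 4 have more; each gene was read from its brightest one.

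The study compared young and old male mice of the outbred ICR strain. Jejunum, ileum, distal colon, liver and spleen were taken at 4 months of age from 6 mice and at 28 months from 9 mice. The older mice were obtained at 8 months and the younger at 2 months, and all were kept on the AIN-93 diet, singly caged and specific-pathogen free, with no treatment or engineered allele given in the labels. For each tissue and age the RNA of all mice was mixed in equal amounts and read on 1 Affymetrix Mouse Genome 430 2.0 array, so the 10 arrays are 10 groups of 1 pool each. The spread between mice was therefore not measured, and a difference between ages within a tissue has no replicate check and no p-value. The tissues were read whole: fewer cells of a type and less RNA per cell cannot be told apart.

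Tight junctions join neighbouring epithelial cells near their apical edge and set which ions, and how much water, pass between the cells. Claudins are membrane proteins that form the strands of the junction. Some of them line pores and others tighten the strand, so the mixture of claudins in an epithelium sets its leakiness. Occludin is a further protein of the strand, and Tjp1 (ZO-1) is the scaffold under the membrane that ties the strands to actin. In the gut the small intestine is leaky to sodium, which nutrient uptake depends on, and the distal colon is tight.

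Signals were scaled to a trimmed mean of 500 units on every array. Values under the median of all signals, 111 units, were treated as not measured, and this level is called the floor below. A difference against a value at the floor is a lower bound. The array marks hybridisation to a gene's own probes, so levels are compared between tissues for one gene and never between genes.

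The promoters of 8 of the 10 members are in the RefSeq table for GRCm38.p6; Cldn8 and Cldn23 are not in it. The 3 shown are those of the claudins whose signals differed along the gut or between the ages in ways described below. Each window holds 300 bases around the annotated start, is written 5′ to 3′ along the gene's own strand, and has matches to searched motifs in capitals. Positions count from the start site, with -1 as the base just upstream.

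Cldn15, chr5:136967619-136967918, plus strand: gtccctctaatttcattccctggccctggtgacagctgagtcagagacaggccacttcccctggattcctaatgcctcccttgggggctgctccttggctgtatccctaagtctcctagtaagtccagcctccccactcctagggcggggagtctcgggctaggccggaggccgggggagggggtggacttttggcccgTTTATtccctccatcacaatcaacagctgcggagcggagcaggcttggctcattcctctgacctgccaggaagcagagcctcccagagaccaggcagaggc
Cldn2, chrX:139800558-139800857, plus strand: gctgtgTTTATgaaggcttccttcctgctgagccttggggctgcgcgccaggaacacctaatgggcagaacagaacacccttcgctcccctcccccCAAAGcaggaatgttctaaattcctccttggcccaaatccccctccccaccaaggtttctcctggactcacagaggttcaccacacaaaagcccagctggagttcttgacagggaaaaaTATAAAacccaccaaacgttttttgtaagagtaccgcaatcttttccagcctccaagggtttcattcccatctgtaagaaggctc
Cldn4, chr5:134946885-134947184, minus strand: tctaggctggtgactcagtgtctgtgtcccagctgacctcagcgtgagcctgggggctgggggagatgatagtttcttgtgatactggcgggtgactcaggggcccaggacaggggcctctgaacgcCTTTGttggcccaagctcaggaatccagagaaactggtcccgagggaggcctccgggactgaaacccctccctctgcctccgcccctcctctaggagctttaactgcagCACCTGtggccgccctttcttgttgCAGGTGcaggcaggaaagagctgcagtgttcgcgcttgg

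The motifs were searched on both strands. The CDX-type letters TTTAT, named for the intestinal homeobox factors, begin at -51 in the Cldn15 window and at -244 in the Cldn2 window. They also lie on the opposite strand of the Cldn2 window within its TATA box, TATAAA, which begins at -35. Cldn2 was the only one of the 8 members with a TATA box, which 13.6% of 32851 promoters in the table hold. CDX-type letters are in 40.0% of them, so a match is common, and Cldn15, Cldn2 and Tjp1 have at least 1. The HNF4-type letters CAAAG are in 53.9% of promoters. They begin at -154 in the Cldn2 window, at -123 on the opposite strand in the Cldn4 window, and are also found in those of Cldn3 and Cldn1. The E-box CAGGTG, the letters bound by the repressor Snail, is in 20.2% of promoters. It is in the windows of Cldn4 (at -14 and 12), Cldn3, Cldn7 and Ocln. The HNF1-type motif GTTAAT (7.10% of promoters) is in the Cldn1 window alone of the 8, and the GATA-type AGATAA (11.2%) is in none. These are matches of letters and not measured binding. Cldn3 and Cldn4 are neighbouring coding genes on chromosome 5.

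The arrays were first checked against their labels with marker lists. The 14 epithelial genes were above the floor on all 6 intestinal arrays, with summed signals of 148041 to 191489 units, so the intestinal arrays carried epithelium. The 4-month ileum array stood apart: its 8 proximal small intestine genes summed to 105909 units, close to the 103125 units of the 4-month jejunum, against 7856 units in the 28-month ileum. Its ileum genes summed to 34350 units against 62253 units at 28 months. Segment differences that rest on the ileum are therefore given with and without this array for Cldn15, Cldn8, Cldn4 and Cldn3. For the other members they are given with it only. Pancreatic acinar genes were present in both jejunum arrays (45941 and 46304 units) and in the 4-month spleen (29463 units, 532 at 28 months), while 9 of the 10 members stayed under the floor in that spleen. The 3 intestinal arrays of 28 months carry sample numbers away from the remaining 7, and no label says whether they formed a separate batch.

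All 10 members were above the floor on at least 1 array. Of the 10, 8 were above it in the jejunum, 9 in the ileum, 10 in the distal colon, 5 in the liver and 1 in the spleen, with the same number at both ages. Tjp1 alone was above the floor on all 10 arrays. The plot of signal by tissue shows the members in 3 patterns: throughout the gut (Cldn2, Cldn3, Cldn4, Cldn7, Cldn23, Ocln, Tjp1), graded along it (Cldn15, Cldn8), or chiefly in liver (Cldn1).

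**Figure D1:**
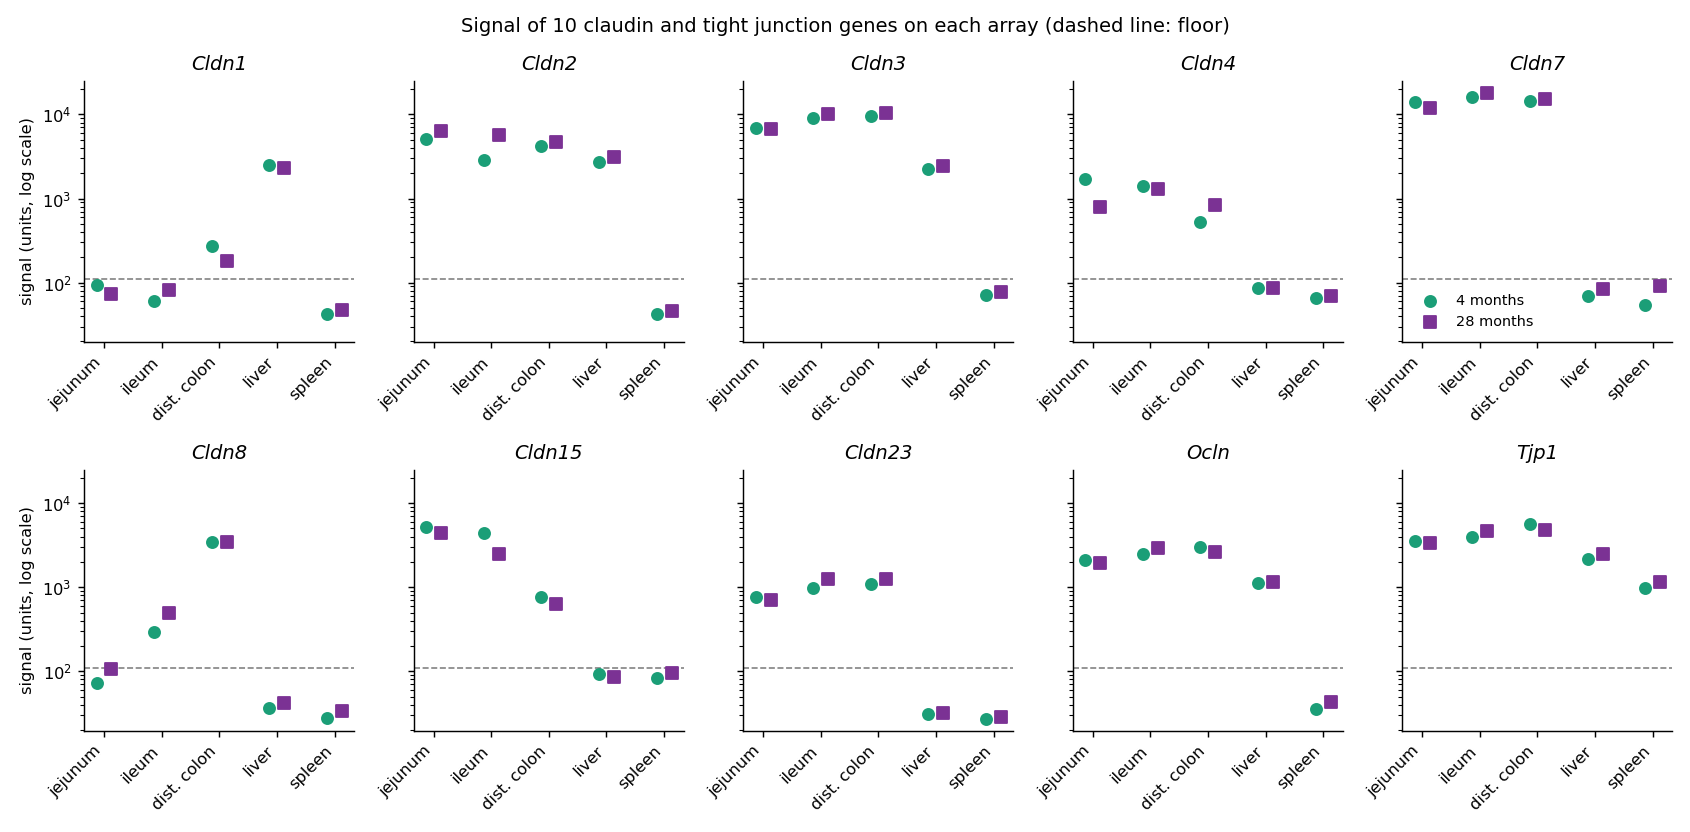
Signal in units (log axis) of each of the 10 genes in 5 tissues, with a circle for the 4-month pool and a square for the 28-month pool (1 array each, so no error bar); the dashed line is the floor of 111 units. Cldn15 steps down and Cldn8 steps up from jejunum to distal colon, Cldn1 is highest in liver, and Tjp1 is the only gene above the floor in spleen.

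Tissues were compared with limma on all 10 arrays, with tissue and age as terms, so that each tissue was read in 2 pools of mice. The error is how far the tissue differences of the 2 pools disagree, and p-values were adjusted by Benjamini-Hochberg over 13995 genes. Signals under the floor were set to the floor before the fit, so 2 pools both under it could not disagree. For members with such tissues the error leaves out that spread, and their p-values may be too small. A gene was called where the adjusted p was under 0.05 and the difference at least 2-fold.

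Between jejunum and distal colon 1 member was called higher (Cldn15) and 1 lower (Cldn8). Of all genes tested, 13.5% were called in this comparison, 5.36% higher and 8.11% lower, so a count of 2 of 10 is near the background. By adjusted p alone, 7 of the 10 passed against 36.7% of all genes. Between ileum and distal colon the same 2 genes were called in the same directions (10.5% of all genes were called, 4.62% higher and 5.86% lower). Between jejunum and ileum Cldn8 alone was called, where 0.829% of all genes were, 0.3% lower in jejunum. The segments also differed in muscle: smooth muscle genes summed to 30190 and 32472 units in jejunum, 33212 and 52084 in ileum, and 118637 and 83629 in distal colon. Their part in the differences between segments was not tested.

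The pore-forming claudins come first. Cldn15, which lines sodium-permeable pores in the small intestine, gave 5146 and 4441 units in the jejunum at 4 and 28 months. It gave 4389 and 2488 units in the ileum, 762 and 624 in the distal colon, and no more than 94.2 units in liver and spleen. The jejunum and ileum arrays all lay above both colon arrays. In limma the jejunum exceeded the colon by 2.79 ± 0.21 (SE) on the log2 scale, 6.93-fold (adjusted p = 0.000402). The ileum exceeded the colon by 2.26 ± 0.21, 4.79-fold (limma adjusted p = 0.000996), and by 1.91 without the 4-month ileum array (adjusted p = 0.00410). Jejunum and ileum did not differ past the threshold: 0.53 (95% interval 0.03 to 1.04, limma adjusted p = 0.327), and 0.88 without the 4-month ileum array (adjusted p = 0.0613).

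Cldn2, the other pore former and a channel for cations and water, is best known from leaky epithelia. Its signals were 5152 and 6329 units in jejunum, 2905 and 5731 in ileum, 4245 and 4739 in distal colon, and 2700 and 3130 in liver. In the spleen both arrays were under the floor. The 4-month ileum was the lowest of the 6 intestinal arrays and lay near the liver. No neighbours in the order jejunum, distal colon, ileum, liver differed past the threshold, and the jejunum exceeded the colon by 0.35 (95% interval -0.19 to 0.89, limma adjusted p = 0.274). On this brightest probe set liver stood at least 26.3-fold above spleen (limma adjusted p = 8.2e-06). The second, dimmer probe set of Cldn2 gave 272 and 218 units in liver, with the spleen under the floor. On it the 4-month liver lay above the 4-month ileum (168 units) and colon (163 units). The 28-month liver lay below every 28-month segment on it.

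Among the tightening claudins, Cldn8, which is a sealing claudin of the distal colon and the kidney tubule, had the largest difference between segments of the 10 on floored signals. It gave 3493 and 3417 units in the distal colon and 295 and 493 units in the ileum. Its jejunum arrays (73.5 and 107 units) and all liver and spleen arrays were under the floor. The 3 segments did not overlap. The colon lay 9.05-fold above the ileum (log2 difference -3.18 ± 0.21 for ileum minus colon, limma adjusted p = 0.000312), and -2.80 without the 4-month ileum array (adjusted p = 0.000636). The colon was at least 31.2-fold above the jejunum (limma adjusted p = 4.6e-05). The ileum was at least 3.45-fold above the jejunum (jejunum minus ileum -1.79 ± 0.21, limma adjusted p = 0.0188), and the difference was -2.16 without the 4-month ileum array (adjusted p = 0.00240). That last call was lost on the 6 intestinal arrays alone (adjusted p = 0.379) and with the floor at the 75th percentile.

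Cldn4, a sealing claudin whose partner at the junction can be Cldn8, gave 1684 and 796 units in the jejunum. It gave 1404 and 1305 units in the ileum and 531 and 829 units in the distal colon, and was under the floor in liver and spleen. At 4 months both small intestinal arrays lay well above the colon; at 28 months the jejunum lay at the level of the colon. The jejunum was 3.17-fold above the colon in the 4-month pools and 1.04-fold below it in the 28-month pools. With the pools so far apart, the ileum minus colon difference of 1.03 ± 0.36 did not pass (limma adjusted p = 0.0763; 1.03 and 0.258 without the 4-month ileum array), nor did jejunum minus colon (0.80, 95% interval -0.07 to 1.68, adjusted p = 0.134).

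Cldn7 was even along the gut. It is a claudin of the lateral membrane that also holds epithelial cells to one another and to their matrix. Its lowest intestinal signal was 11917 units (jejunum, 28 months) and its highest 18031 units (ileum, 28 months). Liver and spleen were under the floor. The gut stood at least 134-fold above each of them (limma adjusted p = 3.6e-08 against liver and 1.3e-07 against spleen), the highest of the members' bounds against either tissue.

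Cldn3, a sealing claudin present in both gut and liver, was lowest in the jejunum among the 3 segments. It gave 6831 and 6647 units in jejunum, 9044 and 10203 in ileum, 9536 and 10325 in distal colon, and 2229 and 2464 in liver. The jejunum arrays lay below the other 4 intestinal arrays by less than 2-fold: jejunum minus colon was -0.56 ± 0.08 (limma adjusted p = 0.00398) and jejunum minus ileum -0.51 (adjusted p = 0.0558), or -0.57 without the 4-month ileum array (adjusted p = 0.0578). Cldn23, a claudin of the surface epithelium, ran from 705 to 773 units in jejunum, 978 to 1250 in ileum and 1103 to 1236 in distal colon. Its jejunum minus colon difference was -0.66 ± 0.15 (limma adjusted p = 0.0157), again under 2-fold.

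Cldn1, a sealing claudin of skin and liver, set the members' other pattern. It gave 2490 and 2323 units in liver, 271 and 179 in distal colon, and under 111 units in jejunum, ileum and spleen. The gut mean was at least 17.3-fold under the liver (log2 difference -4.11 ± 0.14, limma adjusted p = 1.6e-06). The distal colon was at least 1.99-fold above the jejunum (limma adjusted p = 0.00646), just short of the call. Only the brightest probe set was above the floor in the distal colon. Another one, above the floor in liver, gave 43.6 and 44.7 units in colon and 44.2 and 44.4 in jejunum. The 4 probe sets of Cldn1 did not all read alike. Without the probe sets marked as matching several transcripts or other sequences, the gut minus liver difference was -0.57, under 2-fold. The brightest one left gave 176 and 154 units in liver.

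Occludin and the scaffold were both read in gut and liver. Ocln gave 2084 and 1923 units in jejunum, 2507 and 2889 in ileum, 3024 and 2650 in distal colon, and 1120 and 1160 in liver, and was under the floor in spleen. Tjp1 gave 3535 and 3380 units in jejunum, 3968 and 4606 in ileum, 5711 and 4765 in distal colon, 2171 and 2453 in liver, and 971 and 1147 in spleen. By mean signal of the brightest probe set the order for both genes was distal colon, ileum, jejunum, liver, spleen. Colon against ileum and ileum against jejunum did not differ past the threshold in either gene (limma adjusted p from 0.167 to 0.707), and the 28-month ileum lay above the 28-month colon for Ocln. The jejunum lay under the colon by less than 2-fold: Ocln -0.50 ± 0.11 (limma adjusted p = 0.0175) and Tjp1 -0.59 ± 0.14 (adjusted p = 0.0181). The second probe set of Ocln gave 1469 and 1230 units in jejunum, 1722 and 1700 in ileum, and 1458 and 1675 in distal colon. On that probe set the ileum was highest, and the 4-month jejunum lay at the level of the 4-month colon.

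**Figure D2:**
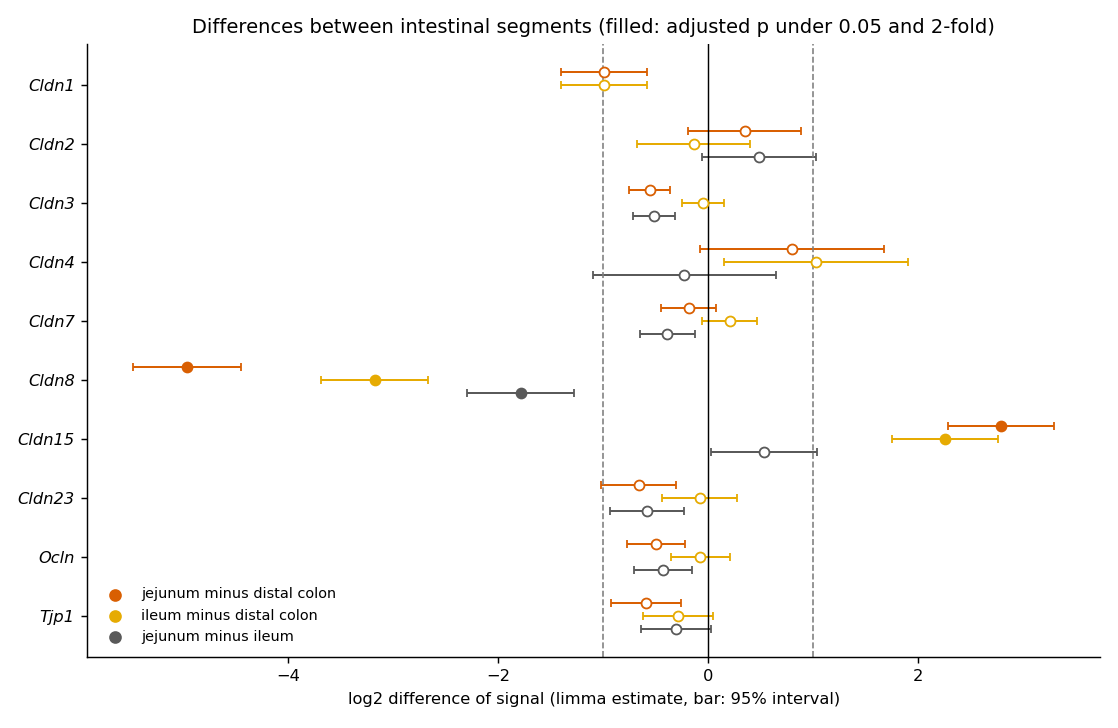
Log2 difference of signal between intestinal segments for each gene, from limma on all 10 arrays; bars are 95% intervals, filled points were called (adjusted p under 0.05 and 2-fold), dashed lines mark 2-fold. Cldn8 and Cldn15 lie beyond the dashed lines on opposite sides, and Cldn1 has no point for jejunum minus ileum because both segments were under the floor.

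Against the liver, the mean of the 3 segments was called higher for 7 members and lower for Cldn1, where 25.5% of all genes were called (15.1% higher and 10.4% lower). Besides Cldn7 these were Cldn15 (a log2 difference of at least 4.32), Cldn4 (at least 9.15-fold), Cldn23 (at least 8.89-fold), Cldn8, Cldn3 (3.68-fold) and Ocln (2.18-fold). Tjp1 (1.84-fold) and Cldn2 (1.62-fold) passed the adjusted p without reaching 2-fold. Against the spleen 9 members were called higher, all but Cldn1, where 28.3% of all genes were called, 15.4% higher. Tjp1 was 4.03-fold higher in the gut than in spleen (limma adjusted p = 1.7e-05), and the other 8 lay at the floor there, so that their folds are bounds. In the spleen 4 to 6 of the 14 epithelial genes were above the floor, with 2280 to 2486 units in sum. Without the 4-month ileum array the same number of members was called, 8 against liver and 9 against spleen.

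Genes most like each member over the 10 arrays were looked up among 6328 genes by Pearson's r, which here mostly records the tissue and carries no p. For Cldn7 they were Clca1 (r = 1.000), a goblet cell product, and the keratin Krt19 (0.999). For Cldn15 they were Anxa13 (0.996) and Slc5a1 (0.995), the sodium-glucose cotransporter of the brush border. Ocln was nearest to the desmosomal gene Dsp (0.999), and Cldn3 to Ocln itself (0.998). Cldn1 was nearest to Lin7a (0.998), Cldn2 to Akr1c19 (0.993), Cldn8 to 2610528A11Rik (0.999), Cldn23 to Pof1b (0.999), Cldn4 to Gm11545 (0.995) and Tjp1 to Tacc2 (0.989).

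The comparison of ages asked how the members differed in 28-month mice from 4-month mice in each tissue, by the log2 ratio of 28 over 4 months on 1 array each. Over the 5 tissues there were 33 ratios of members above the floor, and 1 of them reached 2-fold: Cldn4 in the jejunum. The typical disagreement between probe sets of one gene was 0.11 to 0.14 (SD, log2). Probe sets share the same arrays and pools, so this spread holds no error between pools or between arrays. Those of Cldn2 and Ocln were farther apart in some tissues, as given below. Of the 33 ratios, 27 were under 1.5-fold in either direction.

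In the jejunum Cldn4 was 2.12-fold lower at 28 months (1684 to 796 units, log2 ratio -1.08). It was 1 of 8 measured members past 2-fold, where 1.27% of all measured genes were, 1.02% in the lower direction. The other 7 ranged from -0.26 (Cldn7) to 0.30 (Cldn2) and none reached 1.5-fold, which 5.06% of all genes did. Of the 8, 7 had a ratio below 0 and the median was -0.13, against 0.03 over all genes. The 14 epithelial genes had a median of -0.14 there, with 10 below 0, and Krt20, a keratin of differentiated surface cells, was at -0.77 (18868 to 11077 units). Less the epithelial median, Cldn4 was at -0.94 and the members' median at 0.02, so that Cldn3, Cldn23, Ocln and Tjp1 turned from below to above 0. In the same jejunum arrays the signals of other marker lists differed too. Plasma cell genes went from 79507 to 102640 units (7 of 7 with a ratio above 0), and endothelial genes had 8 of 8 above 0 with a median of 0.35. Proximal small intestine genes went from 103125 to 64100 units, with 8 of 8 below 0 (median -0.80) and 3 at least 2-fold lower. The part of these lists in the result was not tested.

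In the ileum no member reached 2-fold, where 2.55% of all genes did. Cldn2 came closest, at 1.97-fold higher (2905 to 5731 units, log2 ratio 0.98). Its second, dimmer probe set gave 168 and 280 units there, a log2 ratio of 0.74. In other tissues that probe set read apart from the brightest one: -0.11 against 0.30 in jejunum, 0.62 against 0.16 in distal colon and -0.32 against 0.21 in liver. Cldn8 was 1.67-fold higher (295 to 493 units) and Cldn15 1.76-fold lower (4389 to 2488 units, log2 ratio -0.82). These 3 of 9 members passed 1.5-fold, against 9.39% of all genes (5.22% higher and 4.17% lower). The other 6 ranged from -0.11 (Cldn4) to 0.35 (Cldn23), and the median of the 9 was 0.20 (0.03 over all genes).

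Each of these ileum ratios rests on the 4-month ileum array that stood apart, and no second array of that group exists. All 8 proximal small intestine genes were at least 2-fold lower at 28 months in the ileum, with a median of -4.77. Cldn15, higher in jejunum than in colon, was lower in the 28-month ileum, and Cldn8, higher in colon than in jejunum, was higher in it. On a scale with the colon at 0 and the jejunum at 100, the ileum lay at 91.7% for Cldn15 at 4 months and at 70.5% at 28 months. For Cldn8 the jejunum was under the floor, so that only bounds can be given, at most 71.6% and at most 56.4%. Such bounds can show neither a shift between the ages nor its absence. Cldn2 did not differ between jejunum and colon past the threshold, so no such place can be given for it. Smooth muscle genes also differed between these arrays, from 33212 to 52084 units (9 of 9 above 0, median 0.76), while the epithelial median was 0.10. The part of either in the ratios was not tested. Less the epithelial median, Cldn2 was at 0.88, Cldn15 at -0.92 and Cldn8 at 0.64.

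**Figure D3:**
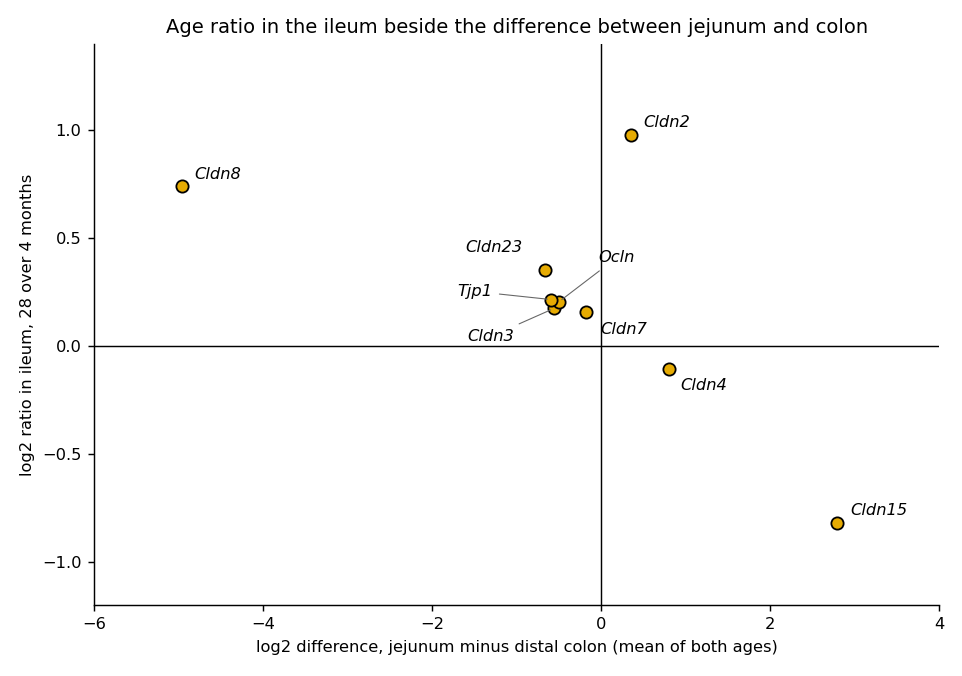
Log2 ratio of 28 over 4 months in the ileum (vertical axis, 1 array per age) beside the log2 difference of jejunum minus distal colon (horizontal axis, mean of both ages) for the 9 members measured in ileum; the axes share no array. Cldn15 lies at lower right (2.79, -0.82), Cldn8 at upper left (-4.96, 0.74), and Cldn2 (0.35, 0.98) has the highest ratio with a small difference between segments.

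In the distal colon all 10 members were measured and none reached 2-fold, where 1.04% of all genes did. Cldn4 was 1.56-fold higher at 28 months (531 to 829 units, log2 ratio 0.64), the opposite direction to its ratio in jejunum. Cldn1 was lower, at 271 and 179 units (log2 ratio -0.59). Its other probe sets were under the floor in this segment at both ages, so that ratio rests on the brightest one alone. Cldn4 and Cldn1 were the 2 of 10 past 1.5-fold, against 4.92% of all genes (2.57% higher and 2.35% lower). The other 8 lay between -0.29 (Cldn15) and 0.16 (Cldn23 and Cldn2), 5 of the 10 were above 0, and the median was 0.01. That range and count hold for the brightest probe sets: the second one of Cldn2 gave 0.62, past 1.5-fold, and the second one of Ocln 0.20 against -0.19. Cldn8, which is brightest in this segment, gave -0.03. The epithelial median was near 0 (7 of 14 above 0). Smooth muscle genes went from 118637 to 83629 units there with 9 of 9 below 0, and B cell genes from 1746 to 3700 units with 7 of 7 above 0. Their part in the members' ratios was not tested.

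In liver 5 members were measured and none passed 1.5-fold, where 4.8% of all genes did and 1.46% passed 2-fold. The ratios ran from -0.10 (Cldn1) to 0.21 (Cldn2), with Tjp1 at 0.18, Cldn3 at 0.14 and Ocln at 0.05. The second probe set of Ocln gave -0.30 in liver, and with the median over its probe sets Ocln was at -0.08, so it had no settled direction there. Cldn2 and Cldn3 had none either: the second probe set of Cldn2 gave -0.32, and the 3 dimmer ones of Cldn3 lay between -0.08 and -0.01. In spleen Tjp1 alone was measured, at 0.24 (971 to 1147 units), where 5.13% of all genes passed 1.5-fold and 0.939% passed 2-fold. One dimmer probe set of Cldn3 was above the floor in spleen, with 134 and 228 units, while its brightest stayed under it.

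**Figure D4:**
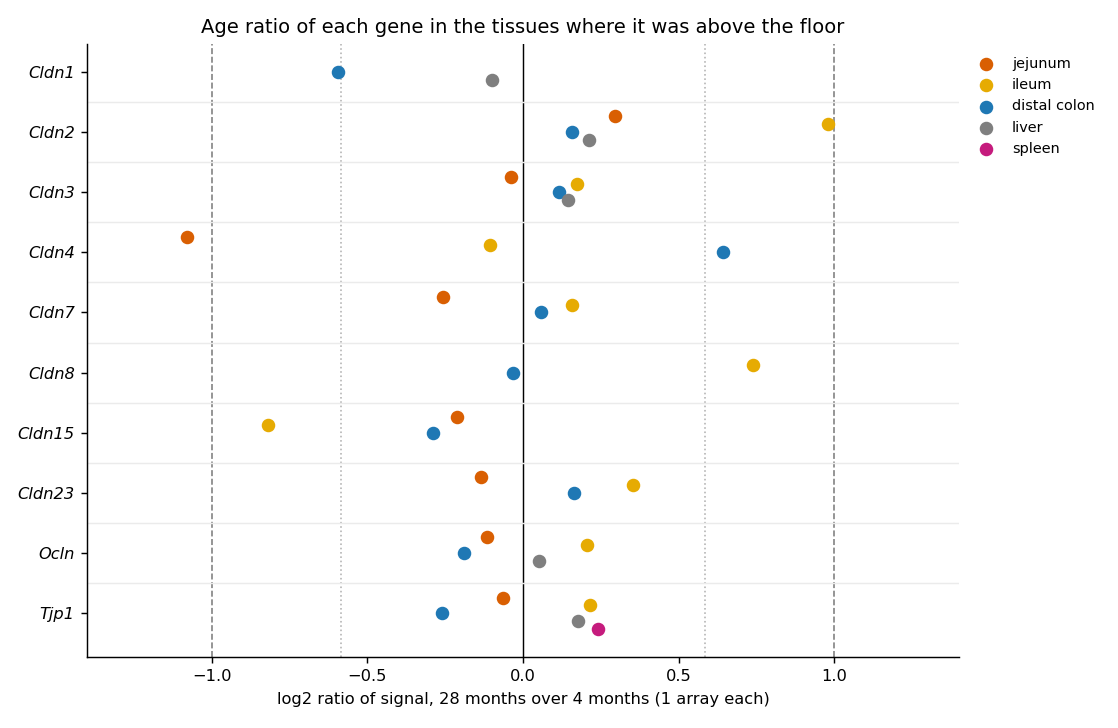
Log2 ratio of 28 over 4 months (horizontal axis) for each gene in the tissues where it was above the floor, 1 array per age, with no error bar; dashed lines mark 2-fold and dotted lines 1.5-fold. Cldn4 in jejunum (-1.08) lies past 2-fold, Cldn2 in ileum (0.98) lies just inside it, and Cldn15 (-0.82) and Cldn8 (0.74) in ileum, Cldn4 (0.64) and Cldn1 (-0.59) in colon lie past 1.5-fold.

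The other genes of cell junctions give the setting for these ratios. In the 7 lists there are 68 of them on the array, of which 49 to 61 were measured per tissue. At 2-fold 2 were called in all tissues together, where 0.939% (spleen) to 2.55% (ileum) of all genes were per tissue. Cldn14, a sealing claudin, was 2.75-fold higher in the distal colon at 28 months (134 to 367 units). Ildr2, of the angulin family at tricellular contacts, was 2.20-fold higher in liver (840 to 1846 units). In jejunum none reached 2-fold and the 58 measured genes had a median of -0.08. Cldn18, the gastric claudin, came closest (390 to 217 units, log2 ratio -0.84), followed by the polarity gene Pard6b (-0.62), by the adhesion gene Jam3 in the higher direction (119 to 181 units, 0.61) and by the polarity gene Crb3 (-0.60). These 4 of 58 were the junction genes past 1.5-fold, against 5.06% of all genes. Adherens junction genes had 8 of 9 ratios below 0 in the jejunum (median -0.19, farthest Nectin1 at -0.48). The tricellular genes had 3 of 3 (median -0.33). Both medians were near the epithelial median or below it. Over all genes 5433 of 12324 ratios were below 0 in the jejunum.

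In the ileum none of 59 other junction genes reached 2-fold, which 2.55% of all genes did, and the median was 0.15. The 3 past 1.5-fold were Jam2 (0.87), the scaffold Mpdz (0.84) and the myosin light chain Myl9 (0.79), a smooth muscle gene as well. Over all genes 9.39% passed 1.5-fold, 5.22% in the higher direction. Desmosomal genes had 7 of 7 ratios above 0 in the ileum, from 0.10 to 0.21, where 6737 of 12504 ratios of all genes were above 0. The farthest desmosomal ratio in any tissue was that of the cadherin Dsc2 in distal colon, at -0.34. In spleen Cldn13, a claudin of mouse red cell precursors, gave 1923 and 3292 units (0.78), and the scaffold Patj -0.93 with the 28-month array at the floor.

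**Figure D5:**
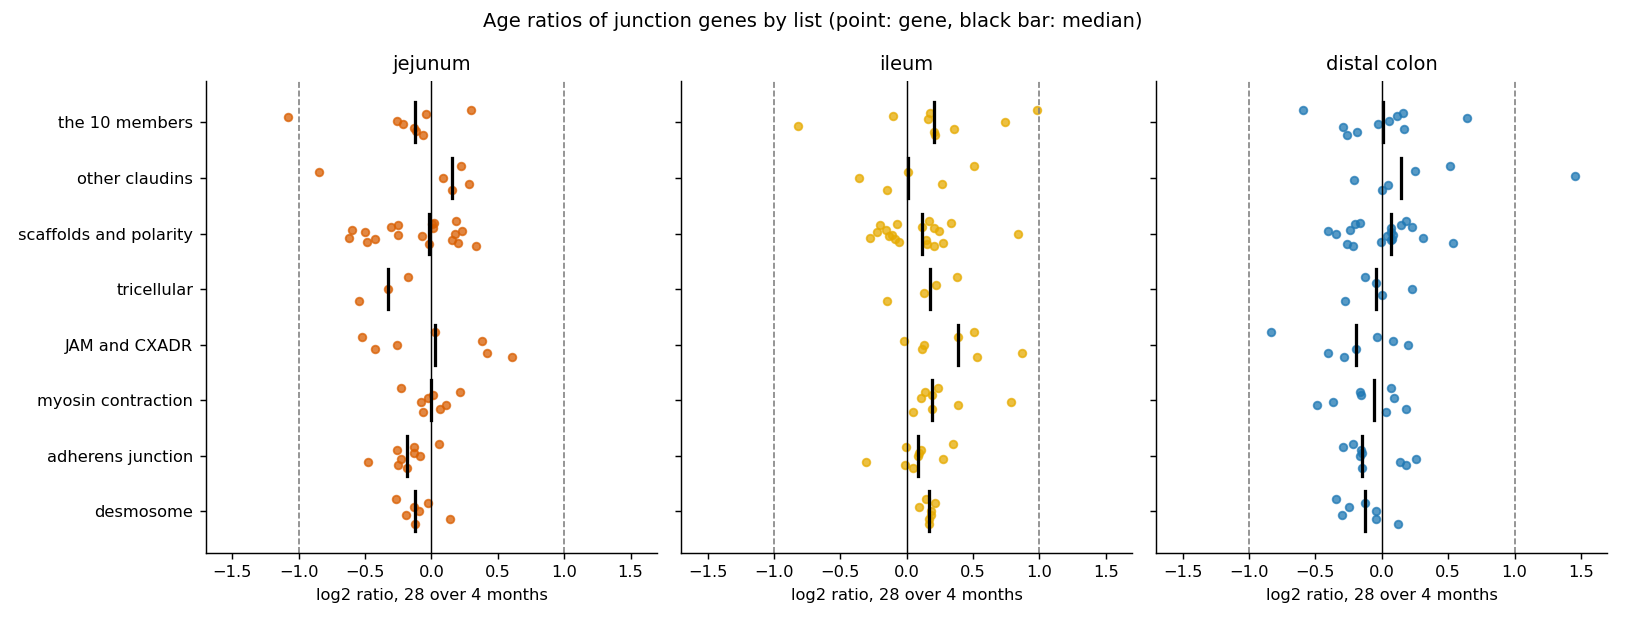
Log2 ratio of 28 over 4 months in the 3 intestinal segments for the 10 members and 7 lists of other junction genes; each point is a gene above the floor, black bars are medians and dashed lines mark 2-fold. The members hold the only point past 2-fold in jejunum (Cldn4), the other claudins hold the only one in colon (Cldn14, 1.46), and the ileum has none.

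Along the gut, 63 other junction genes were tested. Between jejunum and distal colon 2 were called higher, Cldn18 (at least 2.63-fold) and the intestinal cadherin Cdh17 (2.02-fold), and 7 lower, together 9 of 63 against 13.5% of all genes. The lower ones were led by the tricellular gene Ildr1 (at least 4.46-fold lower, 516 and 473 units in colon), Mpdz (3.64-fold) and Myl9. The endothelial claudin Cldn5 (3.26-fold lower) was among them. Between ileum and distal colon 1 of the 63 was called higher (Cdh17) and 6 lower, where 10.5% of all genes were called. None was called by limma between jejunum and ileum, where 0.829% of all genes were. Cldn18 came closest by fold (at least 2.63-fold higher in jejunum, limma adjusted p = 0.0514). The comparisons with ileum include the 4-month ileum array that stood apart. Myl9 is also a smooth muscle gene.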

How the data were processed

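Each of the 10 arrays came from 1 pool of RNA. The deposited values are log2 signals that the authors had already normalised; the submitters' processing notes name MAS5 and affy without a version or a role, and neither the normalisation used nor a genome build was given in the sources used here. The signals were taken out of log2 and scaled per array to a trimmed mean (2% at each end) of 500 units. The median of all signals, 111 units, was the floor. Genes came from the platform annotation: 34958 of 45101 probe sets name 1 gene, 932 several and 9211 none, and the last 2 kinds were left out. A gene was read from its brightest probe set, and counted as measured where it was above the floor at either age; age differences past 2-fold (1.5-fold beside it) were counted without a test. Tissues were compared with limma 3.58.1 in R 4.3.3 (lmFit, eBayes with trend, tissue and age as terms) over 13995 genes above the floor on at least 1 array, with Benjamini-Hochberg adjustment. The 2 arrays of a tissue are pools of different age and not replicates of a group, and the same mice supplied all tissues of an age. Other junction genes and marker genes came from lists. Each member is named on every array, and of each junction list the genes past 2-fold, or else the one with the largest ratio; Cldn13, Cldn18, Pard6b, Crb3, Jam3, Mpdz and the other junction genes named between segments were chosen after their values were seen. The members and lists were chosen with earlier results of these data known. Alternatives were the floor, the scaling, the choice of probe set, the fold, the arrays fitted and the age term. The limma step was tested on simulated data with noise independent between arrays and no floor applied. That test therefore does not bear on the p-values of members with tissues under the floor. The number of arrays limits the precision.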

Additional observations from a re-analysis of the deposited data

Results flagged for a closer look

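The age ratio of Cldn4 went opposite ways in 2 segments. It was -1.08 in the jejunum (1684 to 796 units) and 0.64 in the distal colon (531 to 829 units), a difference of 1.72 on the log2 scale, and the ileum lay between at -0.11. The difference between segments was not tested, because each ratio rests on 1 array per age and on 1 probe set.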

How the results depend on the processing

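No called result changed direction under the alternatives run. The count of members past 2-fold between ages over the 5 tissues, 1 (Cldn4 in jejunum), became 2 when the arrays were scaled to one median and 2 when they were quantile normalised, where Cldn2 in ileum reached 1.01. It became 6 with a 1.5-fold call, 0 with a 3-fold call and 0 relative to the epithelial median. That last setting put the members' median age ratio in jejunum at 0.015 in place of -0.13. Between jejunum and distal colon the count of 2 became 5 with a 1.5-fold call and 4 on the 4-month arrays alone, without a test. Between ileum and distal colon the count of 2 became 4 on the 4-month arrays alone and 4 with no floor and 16 units added, where Cldn1 (-1.46, limma adjusted p = 0.00179) and Cldn4 (1.01, limma adjusted p = 0.0457) joined. Between jejunum and ileum the count of 1 became 0 with the floor at the 75th percentile, where the Cldn8 difference was -0.02, and 0 on the 6 intestinal arrays alone, which leave fewer arrays to estimate the spread. With that higher floor the age ratio of Cldn8 in ileum was 0.04. The counts against liver and spleen stayed within 1.5 times their value under every alternative run. Among the alternatives for single members, 685 values kept their side of the threshold and moved little, 9 gained a call, 5 lost one and 11 moved. Leaving out the 4-month ileum array and counting over the other 4 tissues were chosen after seeing the data. No array could be left out within an age, since each group holds 1. The labels give no replicate numbers. The age term pairs the tissues of one pool, and without it the 5 counts of members between tissues were the same. Signals near the floor limit Cldn8 in ileum and Cldn1 in colon.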
